A study of Mus musculus with 12 samples.

Results

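The genes of glycogen metabolism in inguinal fat are 9 named enzymes and regulators, out of 22180 genes measured on each array. They are the glycogen synthases Gys1 and Gys2, the branching enzyme Gbe1, the UDP-glucose pyrophosphorylase Ugp2, the glycogen phosphorylases Pygl, Pygm and Pygb, and the protein phosphatase 1 (PP1) targeting subunits Ppp1r3c and Ppp1r3b. The list was made by name, and it was chosen by one measured value: Gys2 was seen to be higher in cold than at room temperature in mice without BAF60a in their adipocytes. That difference is therefore described here without a test, as is every other comparison of Gys2 that uses arrays of those mice. All 9 genes were found on the array and none was filtered out for low signal.

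Glycogen is the branched glucose polymer that cells keep as a quickly released sugar store. Ugp2 makes UDP-glucose, glycogen synthase adds it to a chain begun by glycogenin, and the branching enzyme introduces the side branches, while phosphorylase takes glucose units off again as glucose 1-phosphate. PP1 bound to a targeting subunit removes phosphate from both enzymes, which switches the synthase on and the phosphorylase off, whereas cyclic AMP signalling does the reverse through phosphorylase kinase. Fat holds far less glycogen than liver or muscle, and its glycogen is known to turn over with feeding and with adrenergic stimulation. Gys2 and Pygl are known as the liver forms and Pygm as the muscle form, while Gys1 and Pygb are made in many tissues.

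The study asked how loss of BAF60a (gene Smarcd1), a subunit of SWI/SNF chromatin remodelling complexes, changes white fat at rest and in chronic cold. The tissue was the inguinal fat pad of mice (iWAT), white fat under the skin that gains heat-producing beige cells in cold, and its RNA was measured on 12 arrays in 4 groups of 3. The AKO groups carried BAF60a flox/flox alleles and the Adiponectin-Cre transgene, which deletes the gene in adipocytes and spares the other cells of the pad. The flox groups served as controls. One AKO and one flox group were held at 10 °C for 7 days after stepwise cooling (Cold), and the other AKO and flox groups stayed at room temperature (RT, 22 °C). All mice ate standard chow and were 9 months old by their labels, although the methods put mice of the cold experiment at a younger age. Each array carried RNA of 1 or 2 mice, so the spread between arrays is a spread between animals or small pools, and 3 arrays per group limit the precision.

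Signals are on the log2 scale, so a difference of 1 is a doubling, and levels of different genes cannot be set against each other because each probe set has its own response. Array medians lay between 3.58 and 3.71, and Pearson's r across transcript clusters was 0.981 to 0.987 between arrays of one group. Adipocyte markers were high in every array (Adipoq between 9.48 and 9.99, Plin1 between 10.07 and 10.74). Smarcd1 read 5.89, 6.26 and 6.30 in AKO RT arrays, against 6.42, 6.43 and 6.91 in flox RT arrays. In cold it read 6.27, 6.26 and 6.37 in AKO arrays, against 6.27, 6.51 and 6.89 in flox arrays, with overlap. It was not checked whether the probes lie in the deleted part, and non-adipocytes keep the gene. Skeletal muscle transcripts varied strongly between arrays of one group. The mean of 25 muscle genes stood more than 1 log2 unit above its 12-array mean in 3 arrays, AKO RT 2, AKO Cold 2 and AKO Cold 3. In whole tissue, fewer cells of a type and less RNA per cell cannot be told apart, and this holds for every value below.

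A gene counted as changed when its limma adjusted p over all 22180 genes was below 0.05. None of the glycogen genes tested passed in any comparison, where Gys2 was tested for cold against RT in flox fat alone and the other 8 genes throughout. Of 8 tested genes, 0 passed in AKO against flox at RT, where 0.144% of all genes passed, and 0 passed in AKO against flox in cold, where 0.212% passed. In cold against RT, 0 of 8 passed in AKO fat (0.464% of all genes) and 0 of 9 in flox fat (0.00902%). With 3 arrays per group the median SE of a log2 difference over all genes was 0.15. Among the glycogen genes it ran from 0.14 (Ugp2) to 1.22 (Pygm), and was 0.23 for Pygl, 0.27 for Ppp1r3c, 0.30 for Gys2 and 0.42 for Ppp1r3b. At an unadjusted p below 0.05 there were 3 of 8 genes in AKO against flox at RT (6.15% of all genes), 2 of 8 in AKO against flox in cold (6.28%), 4 of 8 in cold against RT in AKO fat (9.86%) and 4 of 9 in cold against RT in flox fat (9.44%). The differences of the glycogen genes were mostly positive. Their median was 0.42 in AKO against flox at RT and 0.24 in AKO against flox in cold. It was 0.78 for cold against RT in AKO fat, which includes Gys2, and 0.37 for cold against RT in flox fat. The median over all genes was between -0.01 and 0.01 in these comparisons.

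Markers of several other cell types of the pad moved in the same comparisons. In the endothelium, lymphocyte, progenitor and fibroblast, macrophage, mammary epithelium and neutrophil lists, 0 genes passed the test. The 5 endothelium genes hardly moved (medians between -0.01 and 0.03). Of 7 B and T lymphocyte genes, 7 were lower in AKO than in flox fat at RT (median -0.10) and 4 in cold. In cold against RT, 7 were lower in flox fat (median -0.20) and 3 in AKO fat. Of 9 adipocyte genes, 1 passed, being lower in cold than at RT in AKO fat. At RT, 7 of the 9 were higher in AKO than in flox fat (median 0.10), and in cold 7 were lower (median -0.10). In cold against RT, 8 of these adipocyte genes were higher in flox fat (median 0.14) and 6 were lower in AKO fat (median -0.06). The cold effect was lower in AKO than in flox fat for 9 of 9 (median -0.15). Of 6 adipose progenitor and fibroblast genes, 6 were lower in cold than at RT in each genotype (median -0.36 in AKO and -0.43 in flox fat). Their mean stood -0.33 to -0.04 from its 12-array mean in AKO Cold and 0.16 to 0.45 in AKO RT arrays, and -0.60 to 0.02 in flox Cold and -0.06 to 0.35 in flox RT arrays. Of 8 macrophage genes, 8 were lower in cold in each genotype (median -0.25 in AKO and -0.27 in flox fat), with the mean at -0.26 to 0.03 in AKO Cold and 0.09 to 0.28 in AKO RT arrays, and at -0.23 to -0.13 in flox Cold and -0.26 to 0.35 in flox RT arrays. Between genotypes, 9 of 9 mammary epithelium genes were lower in AKO than in flox fat at RT (median -0.56, mean at -0.30 to -0.24 in AKO RT and -0.25 to 0.88 in flox RT arrays). In cold against RT, 9 of 9 were lower in flox fat and 8 of 9 were higher in AKO fat. In cold, 6 of 6 neutrophil genes were higher in AKO than in flox fat (median 0.43, mean at 0.10 to 0.49 in AKO Cold and -0.51 to 0.10 in flox Cold arrays). Many genes of these 2 lists were dim. S100a8 and S100a9 read below the median of all transcript clusters (3.64) in 12 arrays, Retnlg in 10 and Ngp in 9, but Csf3r and Cxcr2 in 0. Of the mammary genes, Krt14, Elf5 and Csn3 did so in 12 arrays, Krt19 in 9, Krt18 in 8, Cldn3 in 2, Krt8 in 1 and Epcam and Cdh1 in 0. The part of these cells in the glycogen gene values was not tested.

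**Figure D1:**
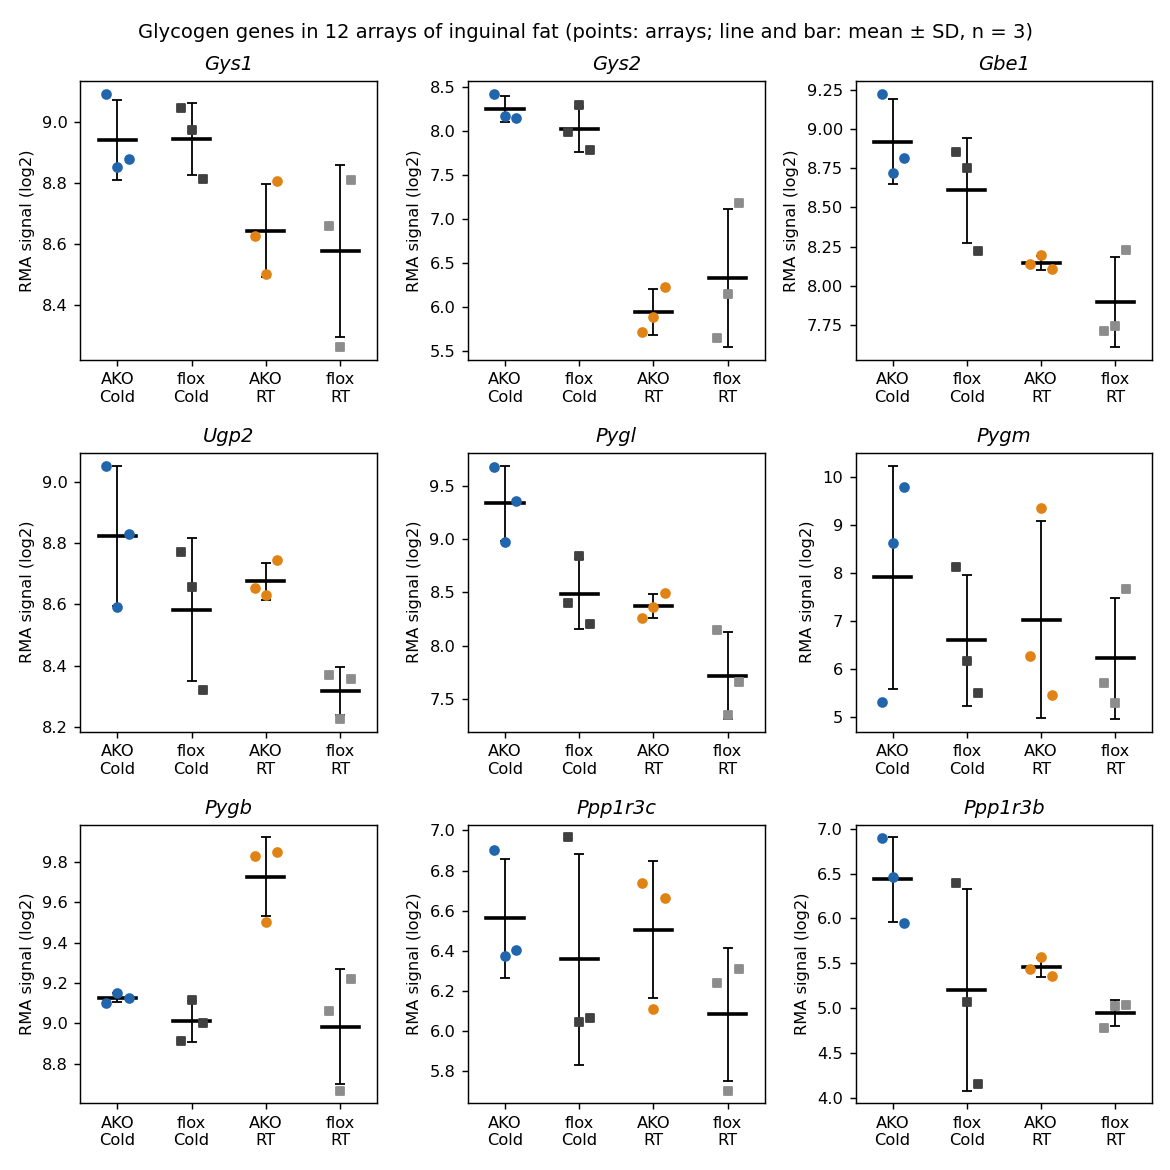
RMA signals (log2, vertical axes, each with its own range) of the 9 glycogen genes in AKO Cold, flox Cold, AKO RT and flox RT arrays. Points are arrays, horizontal lines are means and bars are SDs of 3 arrays; Gys2 lies between 7.78 and 8.42 in all 6 cold arrays and between 5.66 and 7.18 in all 6 RT arrays.

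Gys2, the synthase known from liver, had the largest cold minus RT difference of the 9 genes in flox fat. It was chosen by its difference in AKO fat, so its rank there is not a result. In AKO fat it read 8.42, 8.17 and 8.15 in cold and 5.72, 5.89 and 6.23 at RT. The cold arrays lay far above the RT arrays, by 2.30 ± 0.30 (SE) on the log2 scale or 4.93-fold, and this is the value that placed Gys2 in the list. The flox arrays, which had no part in that choice, read 7.99, 8.29 and 7.78 in cold and 5.66, 6.15 and 7.18 at RT. Here too every cold array was above every RT array, and flox RT 3 was the highest of the RT arrays. The difference was 1.69 ± 0.30 (SE, 95% interval 1.03 to 2.36), or 3.23-fold, with a limma adjusted p of 0.1003, which missed the threshold. This SE, interval and p pool the spread within all 4 groups, so they also draw on the AKO arrays that chose Gys2. The SD was 0.15 in AKO Cold and 0.26 in AKO RT arrays, against 0.26 in flox Cold and 0.78 in flox RT arrays. Without flox RT 3 it was 2.12 ± 0.21 (SE) with an adjusted p of 0.00195, and with a variance trend and robust settings in limma the adjusted p was 0.0478. Over all alternatives and omissions of single arrays, the difference stayed between 1.35 and 2.12, while its adjusted p ranged between 0.00195 and 0.715.

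The Gys2 readings of both genotypes overlapped in cold. AKO Cold arrays averaged 8.25 ± 0.15 and flox Cold arrays 8.02 ± 0.26 (SD, n = 3 each), with overlapping ranges and a difference of 0.23 ± 0.30 (SE). At RT, AKO arrays averaged 5.95 ± 0.26 and flox arrays 6.33 ± 0.78, a difference of -0.38 ± 0.30 (SE) that turned to 0.05 without flox RT 3. Ucp1, the uncoupling protein of heat-producing fat, had another pattern in the same arrays. It read 10.92, 10.41 and 10.59 in AKO Cold arrays, against 4.94, 5.72 and 3.70 in flox Cold arrays, and averaged 2.83 in AKO RT and 2.73 in flox RT arrays. The cold arrays of both genotypes thus overlapped in Gys2 and were far apart in Ucp1. The mean of 7 brown and beige adipocyte genes was 2.13 to 2.53 above its 12-array mean in AKO Cold arrays and between -0.37 and 0.44 from it in flox Cold arrays. Of these 7 genes, 6 passed as higher in cold than at RT in AKO fat (0.464% of all genes passed). For AKO against flox in cold, 4 passed as higher (0.212%). For AKO against flox at RT (0.144%) and cold against RT in flox fat (0.00902%), 1 passed in each. For the difference between the cold effects of the 2 genotypes, 2 passed (0.018%). The part of beige adipocytes in the Gys2 values was not tested.

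**Figure D2:**
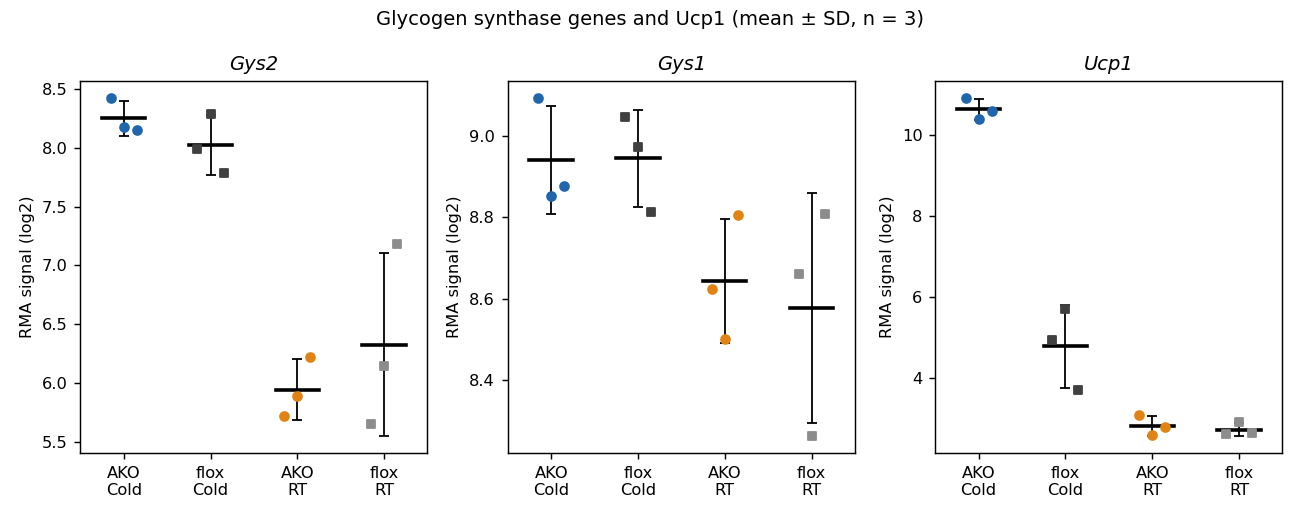
RMA signals (log2) of the glycogen synthase genes Gys2 and Gys1 and of Ucp1 in the 4 groups, with each array as a point and mean ± SD of 3 arrays as line and bar. Gys2 is high in both cold groups (means 8.25 in AKO and 8.02 in flox), Gys1 spans 8.26 to 9.09, and Ucp1 is above 10 in AKO Cold arrays alone.

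Among all genes tested, those whose centred profile over the 12 arrays was nearest to that of Gys2 were Dio2, Acss2, Me1, Otop1 and Elovl6. Nearness was the root mean square difference after centring each gene on its own mean, which was 0.40 for Dio2, 0.46 for Acss2, 0.49 for Me1, 0.50 for Otop1 and 0.56 for Elovl6, where Gys2's own root mean square deviation was 1.07. Acss2, which makes acetyl-CoA from acetate, averaged 8.68 in AKO Cold, 7.38 in AKO RT, 8.61 in flox Cold and 7.44 in flox RT arrays. Me1, the cytosolic malic enzyme that supplies NADPH, averaged 11.08 in AKO Cold, 9.86 in AKO RT, 11.48 in flox Cold and 10.30 in flox RT arrays. Both averaged higher in cold than at RT in each genotype. Between the cold groups Me1 differed more than Gys2 did, and it was lower in AKO Cold than in flox Cold arrays. Dio2, the deiodinase that activates thyroid hormone, averaged 4.88 in AKO Cold, 2.48 in AKO RT, 3.95 in flox Cold and 2.69 in flox RT arrays. It was dim, reading below the median of all transcript clusters (3.64) in 6 of the 12 arrays. Otop1, a proton channel, averaged 6.90 in AKO Cold, 4.39 in AKO RT, 5.47 in flox Cold and 4.65 in flox RT arrays. These averages, with those of the fatty acid elongase Elovl6 (11.07 in AKO Cold, 9.46 in AKO RT, 10.16 in flox Cold and 9.01 in flox RT arrays), differed more between the cold groups than those of Gys2 did. The profile was chosen by its likeness, so these values are a description without a test.

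Gys1, the synthase made in most tissues, varied within a narrow range. In AKO fat it read 9.09, 8.85 and 8.88 in cold and 8.62, 8.50 and 8.81 at RT, and in flox fat 9.05, 8.97 and 8.81 in cold and 8.66, 8.26 and 8.81 at RT. The cold arrays lay above the RT arrays in each genotype, in flox fat by a margin too small to show at 2 decimals. The difference was 0.30 in AKO fat (95% interval -0.03 to 0.62, adjusted p = 0.560) and 0.37 in flox fat (0.05 to 0.69, adjusted p = 0.456). AKO and flox arrays overlapped at each temperature. AKO minus flox was 0.07 at RT (95% interval -0.25 to 0.39) and -0.0032 in cold (-0.33 to 0.32).

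Gbe1, which adds the branches, was higher in cold in both genotypes without passing the test. In AKO fat it read 9.23, 8.72 and 8.82 in cold and 8.14, 8.19 and 8.11 at RT, with all cold arrays above all RT arrays. In flox fat it read 8.85, 8.75 and 8.22 in cold and 7.71, 7.74 and 8.23 at RT, where flox Cold 3 and flox RT 3 met. Cold minus RT was 0.78 in AKO fat (95% interval 0.36 to 1.20, adjusted p = 0.131) and 0.72 in flox fat (0.29 to 1.14, adjusted p = 0.265). AKO minus flox was 0.25 at RT (-0.17 to 0.67) and 0.31 in cold (-0.11 to 0.73), and the arrays of both genotypes overlapped at each temperature. Leaving out single arrays gave 0.12 (without flox Cold 3) to 0.43 in cold.

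Ugp2, the source of UDP-glucose, was the only synthesis gene among the 9 whose genotypes did not overlap at RT. It read 8.65, 8.63 and 8.74 in AKO RT arrays, against 8.37, 8.23 and 8.35 in flox RT arrays, with no overlap. The difference was 0.36 (95% interval 0.05 to 0.67, adjusted p = 0.755). In cold it read 9.05, 8.59 and 8.83 in AKO arrays and 8.77, 8.66 and 8.32 in flox arrays, which overlapped, with a difference of 0.24 (-0.07 to 0.55, adjusted p = 0.879). Leaving out single arrays gave 0.11 (without flox Cold 3) to 0.36 in cold. Cold minus RT was 0.15 in AKO fat (-0.16 to 0.46) and 0.27 in flox fat (-0.04 to 0.57).

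The 3 phosphorylase genes showed 3 different patterns over the same arrays. RefSeq promoter windows (GRCm38.p6) were held for 7 of the 9 glycogen genes, and not for Gys2 and Ppp1r3b. The 250 bases before the transcription start of the phosphorylase genes are shown, as the family members that differ most in pattern. Capitals mark CAGCTG, an E-box of the kind bound by muscle and other basic helix-loop-helix factors, and the GC box GGGCGG or its reverse complement CCGCCC. The windows are chr12:70227684-70227933, minus strand, for Pygl, chr19:6384158-6384407, plus strand, for Pygm, and chr2:150786546-150786795, plus strand, for Pygb.
Pygl: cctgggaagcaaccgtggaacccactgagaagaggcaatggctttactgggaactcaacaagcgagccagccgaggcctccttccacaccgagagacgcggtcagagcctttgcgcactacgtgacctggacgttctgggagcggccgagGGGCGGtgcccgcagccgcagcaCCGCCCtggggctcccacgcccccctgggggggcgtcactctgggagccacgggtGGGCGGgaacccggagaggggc
Pygm: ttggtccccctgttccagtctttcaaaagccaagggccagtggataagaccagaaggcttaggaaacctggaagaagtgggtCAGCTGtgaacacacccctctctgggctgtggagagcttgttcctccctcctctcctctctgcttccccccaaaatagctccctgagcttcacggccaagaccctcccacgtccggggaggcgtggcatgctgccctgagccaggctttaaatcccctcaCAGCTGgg
Pygb: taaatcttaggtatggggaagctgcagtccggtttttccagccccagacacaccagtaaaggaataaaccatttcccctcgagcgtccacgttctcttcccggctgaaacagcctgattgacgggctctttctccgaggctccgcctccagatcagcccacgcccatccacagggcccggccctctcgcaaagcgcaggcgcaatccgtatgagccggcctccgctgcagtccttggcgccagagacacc
The Pygm window held 2 CAGCTG matches and 0 GC boxes, the Pygl window 0 and 3, and the Pygb window 0 and 0. CAGCTG also occurred once in the windows of Gys1, Ppp1r3c and one of the Ugp2 windows, so it was not particular to Pygm. Of 32851 promoter windows of this length, 13% held CAGCTG and 32.7% held a GC box on either strand. A match is a string of letters in this window and says nothing of binding.

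Pygl, the liver form, was highest in AKO fat in cold. It read 9.68, 8.97 and 9.36 in AKO Cold arrays, against 8.40, 8.85 and 8.21 in flox Cold arrays. At RT it read 8.26, 8.37 and 8.49 in AKO arrays, against 8.15, 7.34 and 7.66 in flox arrays. AKO arrays lay above flox arrays at both temperatures, cold arrays lay above RT arrays in both genotypes, and the 3 AKO Cold arrays were above the other 9. AKO minus flox was 0.86 in cold (95% interval 0.35 to 1.36, adjusted p = 0.313) and 0.66 at RT (0.15 to 1.16, adjusted p = 0.669). Cold minus RT was 0.97 in AKO fat (0.46 to 1.47, adjusted p = 0.114) and 0.77 in flox fat (0.27 to 1.27, adjusted p = 0.300). Of the 9 genes, Pygl was the only one with an unadjusted 95% interval above 0 in all 4 of these comparisons, and none of the 4 passed after adjustment over all genes. Without the 3 muscle-rich arrays the differences were 1.20 for AKO against flox in cold, 0.66 for AKO against flox at RT and 1.31 for cold against RT in AKO fat, where the values in cold rest on AKO Cold 1 alone, the array with the highest Pygl of all 12.

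Pygm, the muscle form, varied between arrays of one group more than it did between groups. It read 5.31, 8.63 and 9.80 in AKO Cold arrays and 8.12, 6.16 and 5.49 in flox Cold arrays. At RT it read 6.27, 9.35 and 5.45 in AKO arrays and 5.71, 5.29 and 7.66 in flox arrays. Every comparison overlapped, and the SD of Pygm within groups was 1.81, against a median of 0.19 over all genes. AKO minus flox was 1.32 in cold (95% interval -1.34 to 3.99) and 0.80 at RT (-1.86 to 3.47), and cold minus RT was 0.89 in AKO fat (-1.78 to 3.55) and 0.37 in flox fat (-2.29 to 3.04). The 5 arrays with the highest Pygm were, in the same order, the 5 with the highest mean of the 25 muscle genes, a list that does not hold Pygm. That mean stood -1.79, 1.28 and 2.96 from its 12-array mean in AKO Cold arrays and 0.80, -0.46 and -1.42 in flox Cold arrays. It stood -0.53, 2.41 and -1.46 from it in AKO RT arrays and -1.04, -1.54 and 0.79 in flox RT arrays.

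The muscle genes were higher in AKO than in flox means as well, with 25 of 25 above 0 in cold (median 1.27) and 24 of 25 at RT (median 0.76), and 0 of them passed the test. Without the 3 muscle-rich arrays, all of them AKO, Pygm was lower in AKO than in flox fat, by -1.28 ± 1.05 (SE) in cold and -0.36 ± 0.83 (SE) at RT. Cold minus RT in AKO fat was then -0.55 ± 1.11 (SE), with a single AKO Cold array left, which is assumed to vary like the others. That omission kept flox Cold 1 and flox RT 3, with muscle means at 0.80 and 0.79, so its negative signs cannot be read as a genotype difference. With the muscle mean as a covariate on all 12 arrays, AKO minus flox was 0.13 ± 0.18 (SE) in cold and 0.06 ± 0.18 (SE) at RT. The genes nearest to Pygm in profile were Ampd1, the muscle AMP deaminase (root mean square difference 0.24), and Neb (0.26), Myoz1 (0.26), Ttn (0.28) and Mylpf (0.29), which encode parts of the sarcomere and belong to the 25 muscle genes. Pygm's own root mean square deviation was 1.61. Of the other glycogen genes on the muscle-rich arrays, none was higher than its group's remaining arrays by more than 0.18. Ppp1r3b (0.18) and Gbe1 (0.07) were higher there in AKO RT, and Pygb (0.03) in AKO Cold. All other differences of these genes were negative. The lowest in AKO RT was -0.59 (Ppp1r3c). In AKO Cold they included -0.69 (Ppp1r3b), -0.51 (Pygl) and -0.51 (Ppp1r3c). These compare AKO RT 2 with its group, and AKO Cold 2 and 3 with AKO Cold 1 alone.

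**Figure D3:**
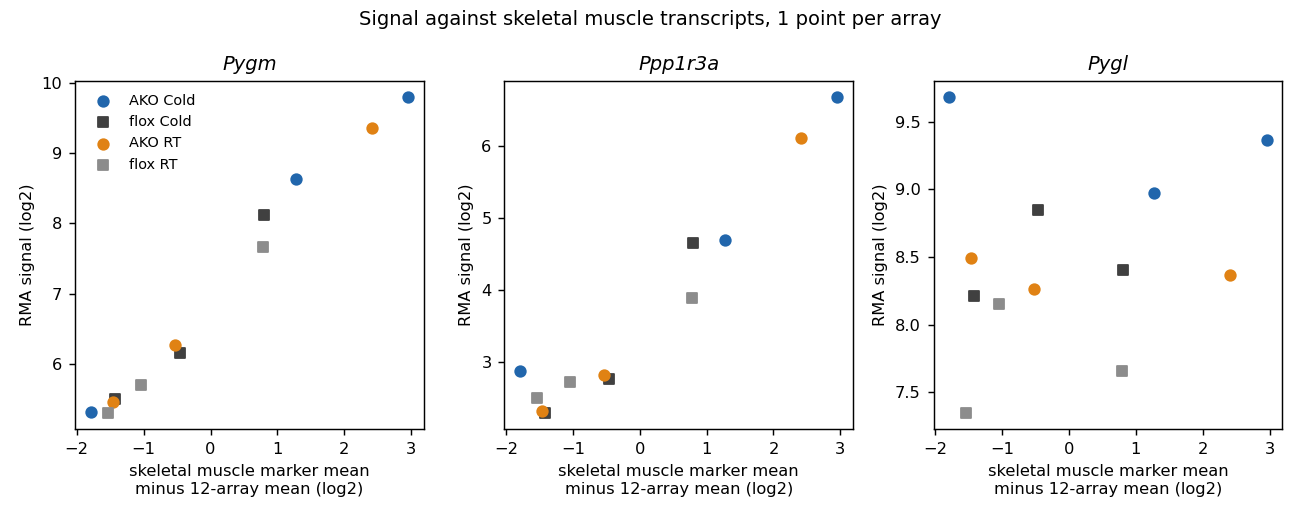
RMA signals (log2, vertical axes) of Pygm, Ppp1r3a and Pygl against the mean of 25 skeletal muscle genes, given as its distance from the 12-array mean (log2, horizontal axes), with 1 point per array and colour and shape for the 4 groups. Pygm and Ppp1r3a are highest in AKO Cold 3 and AKO RT 2, at 2.96 and 2.41 on the horizontal axis, while Pygl is highest in AKO Cold 1, at -1.79.

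Pygb, the brain form that many tissues make, stood out in AKO fat at RT. It read 9.83, 9.50 and 9.85 in AKO RT arrays, against 9.06, 8.67 and 9.22 in flox RT arrays. The lowest of the AKO RT arrays was above all 9 others, which lay between 8.67 and 9.22. The difference was 0.74 (95% interval 0.42 to 1.06), or 1.67-fold, with an adjusted p of 0.127, and 0.0425 with a variance trend and robust settings in limma. Over all alternatives and omissions of single arrays its adjusted p ranged between 0.0425 and 0.853. In cold the genotypes overlapped, at 9.10, 9.15 and 9.13 in AKO arrays and 8.91, 9.11 and 9.00 in flox arrays, with a difference of 0.12 (-0.20 to 0.43). Cold minus RT was -0.60 in AKO fat (-0.92 to -0.28, adjusted p = 0.123), where all cold arrays were below all RT arrays, and 0.03 in flox fat (-0.29 to 0.34). Pygb was thus the only one of the 9 genes lower in cold than at RT in AKO fat. Without the 3 muscle-rich arrays the values were 0.85 for AKO against flox at RT and -0.73 for cold against RT in AKO fat, with AKO Cold 1 as the single AKO Cold array left.

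Ppp1r3b and Ppp1r3c encode subunits that bring PP1 to glycogen, the first known from liver and the second from many tissues. Ppp1r3b read 6.89, 6.46 and 5.95 in AKO Cold arrays, against 6.39, 5.07 and 4.15 in flox Cold arrays. At RT it read 5.43, 5.57 and 5.36 in AKO arrays, against 4.78, 5.02 and 5.04 in flox arrays. The flox Cold arrays were spread over more than 2 log2 units, so they overlapped with AKO Cold arrays, while the RT groups did not overlap. AKO minus flox was 1.23 in cold (95% interval 0.31 to 2.15, adjusted p = 0.585) and 0.51 at RT (-0.41 to 1.43, adjusted p = 0.916). Without flox Cold 1, the difference in cold was 1.82 ± 0.28 (SE) with an adjusted p of 0.0434, and without flox Cold 3 it was 0.70. Over all alternatives and omissions its adjusted p ranged between 0.0434 and 0.929. Cold minus RT was 0.98 in AKO fat (0.06 to 1.90, adjusted p = 0.468), with cold above RT in all arrays, and 0.26 in flox fat (-0.66 to 1.18).

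A second probe set of Ppp1r3b, with a mean signal of 3.70, gave 0.97 for AKO minus flox in cold and 0.76 for cold minus RT in AKO fat. For AKO minus flox at RT it gave -0.02, so the difference of the first probe set at RT was not seen with it, and cold minus RT in flox fat was -0.24. Neither probe set passed the test in any comparison.

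Ppp1r3c overlapped between groups in every comparison. It read 6.90, 6.38 and 6.41 in AKO Cold arrays and 6.97, 6.05 and 6.06 in flox Cold arrays. At RT it read 6.74, 6.11 and 6.66 in AKO arrays and 6.24, 5.70 and 6.31 in flox arrays. AKO minus flox was 0.20 in cold (95% interval -0.39 to 0.79) and 0.42 at RT (-0.17 to 1.01). Cold minus RT was 0.06 in AKO fat (-0.53 to 0.65) and 0.27 in flox fat (-0.32 to 0.86).

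**Figure D4:**
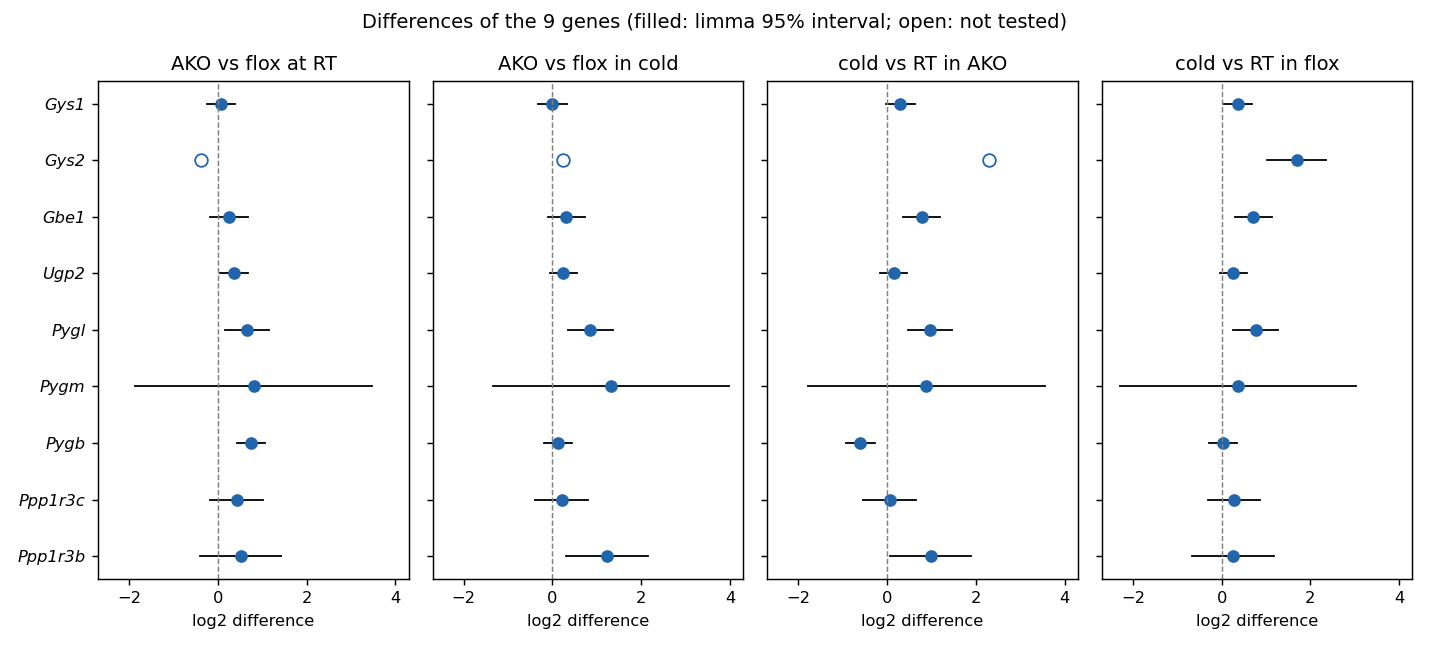
Log2 differences (horizontal axes) of the 9 glycogen genes between AKO and flox fat at each temperature and between cold and RT in each genotype. Filled points have limma 95% intervals as lines, open points (Gys2 wherever AKO arrays are used) were not tested; the Pygl intervals lie above 0 in all 4 panels and Pygb lies below 0 in AKO fat alone.

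Groups that did not overlap were counted as a description. In AKO against flox at RT, 4 of the 9 genes (Ugp2, Pygl, Pygb and Ppp1r3b) had every AKO array above every flox array, as had 5.61% of all genes. In AKO against flox in cold, 1 of 9 (Pygl) did, as did 5.7% of all genes. In cold against RT in AKO fat, 5 of 9 (Gys1, Gys2, Gbe1, Pygl and Ppp1r3b) had every cold array above every RT array, against 8.9% of all genes, and 1 of 9 (Pygb) had every cold array below, against 8.3%. Gys2 is in that count by the way it was chosen. In flox fat, 3 of 9 (Gys1, Gys2 and Pygl) had every cold array above every RT array, against 7.02% of all genes.

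Whether cold acted differently in AKO and in flox fat was tested as the difference between the cold effects of the 2 genotypes. None of 8 tested genes passed (0.018% of all genes did), and 1 of 8 had an unadjusted p below 0.05 (4.78% of all genes). That gene was Pygb, whose cold effect was lower in AKO than in flox fat by -0.63 on the log2 scale (95% interval -1.08 to -0.18, adjusted p = 0.978). Ppp1r3b had 0.72 (-0.59 to 2.02) and Pygl 0.20 (-0.51 to 0.91). For Gys2 the cold effects were 2.30 in AKO and 1.69 in flox fat, 0.61 ± 0.43 (SE) apart. The intervals of Gys1, Gbe1, Ugp2, Pygm and Ppp1r3c included 0 as well, so a difference in either direction could not be told from the spread of these arrays.

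Of 36 other symbols listed for glycogen metabolism, 30 were measured by a probe set with a single gene symbol, and the rest were not analysed here. None of the 30 passed the test in any of the 5 comparisons. Their median difference was 0.10 between AKO and flox fat at RT and 0.06 in cold, and -0.03 for cold against RT in AKO fat and 0.05 in flox fat. AKO exceeded flox in 23 of 30 at RT and in 20 of 30 in cold, and cold exceeded RT in 13 of 30 in AKO fat and in 17 of 30 in flox fat. These other genes thus had smaller medians than the 9 genes above, which were partly chosen for a difference.

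Gyg encodes glycogenin, the protein primer of glycogen chains. It read 8.70, 8.70 and 8.67 in AKO RT arrays, against 8.48, 8.33 and 8.41 in flox RT arrays, with no overlap and a difference of 0.28 (95% interval 0.07 to 0.50, adjusted p = 0.669). In AKO fat it read 8.94, 8.80 and 8.78 in cold, above all AKO RT arrays, and cold minus RT was 0.15 (-0.06 to 0.37, adjusted p = 0.687). In flox fat it read 8.81, 8.81 and 8.60 in cold, above all flox RT arrays, and cold minus RT was 0.34 (0.12 to 0.55, adjusted p = 0.295). Gyg and Hk3, a hexokinase, had the smallest p of the 30 in that comparison, with Hk3 at -0.73 (-1.26 to -0.19, adjusted p = 0.360).

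Phkg2, the catalytic subunit of phosphorylase kinase known from liver, read 7.22, 7.21 and 7.08 in AKO Cold arrays, against 7.30, 7.55 and 7.79 in flox Cold arrays. The AKO arrays lay below the flox arrays in cold, with a difference of -0.38 (95% interval -0.65 to -0.10, adjusted p = 0.558), and at RT the difference was 0.20 (-0.08 to 0.47). The cold effects of the genotypes differed by -0.57 (-0.96 to -0.18, adjusted p = 0.978). Stbd1, which binds glycogen and links it to autophagy, had 0.43 for AKO minus flox in cold (0.01 to 0.85, adjusted p = 0.781).

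Ppp1cc, a catalytic subunit of PP1, had -0.45 for AKO minus flox at RT (95% interval -0.81 to -0.09, adjusted p = 0.709) and 0.58 for the difference between cold effects (0.07 to 1.09, adjusted p = 0.978). Ppp1r3f, another PP1 targeting subunit, had 0.41 for cold minus RT in AKO fat (0.06 to 0.77, adjusted p = 0.405), and Hk1, a hexokinase, had -0.19 (-0.40 to 0.03, adjusted p = 0.586). Each of these genes was named as one of the 2 with the smallest p in a comparison. Ppp1r3a, the PP1 targeting subunit of skeletal muscle, followed the muscle genes as Pygm did. It read 2.88, 4.69 and 6.69 in AKO Cold arrays, 2.82, 6.11 and 2.33 in AKO RT arrays, 4.65, 2.76 and 2.29 in flox Cold arrays and 2.72, 2.50 and 3.89 in flox RT arrays. It was named after its values were seen.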

How the data were processed

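Total RNA of inguinal fat (400 ng per array) was labelled with the Affymetrix WT Plus kit and hybridised to single-colour arrays. The deposited values are log2 signals that the authors made with RMA in R 3.1.1, according to the submitters' processing notes. Whether the 12 arrays were normalized together is not given in the sources used here, and 0 columns of values were left out. Of 41345 transcript clusters (probe sets), 23521 had 1 gene symbol, 1820 had several and 16004 had none in the probe table, and each gene was represented by its single-symbol cluster with the highest mean, which left 22180 genes with no filter on dim signals.

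Group differences came from limma 3.58.1, run in R 4.3.3 (two-sided lmFit and eBayes on all 12 arrays, each group with its own mean), with Benjamini-Hochberg adjustment over all genes in each of 5 comparisons. Intervals are unadjusted 95% intervals of that fit. No batch is given in the labels, so no covariate was used. The procedure was also run on simulated data with noise drawn independently for each gene. Muscle genes varied together in the real arrays, so that run is no measure of the power reached here. Named genes were the 9 glycogen genes, the 2 pathway genes with the smallest p in each comparison, Smarcd1, Ucp1 and the 5 genes nearest in profile to Gys2 and to Pygm. The glycogen genes and all lists were chosen with earlier results of these data known. Alternatives were centring, leaving out dim genes, averaging the clusters of a gene, variance trend with robust settings, a block for the replicate number, the methods' t-test, the muscle mean as a covariate, and leaving out the muscle-rich arrays or each array in turn.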

Additional observations from a re-analysis of the deposited data

How the results depend on the processing

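Beside the omission of single arrays, 8 alternatives were run, and none of the glycogen genes tested (all but Gys2 wherever AKO arrays are used) passed under them except Pygb at RT and Gys2 for cold against RT in flox fat with variance trend and robust settings, which made 1 glycogen gene pass in each of these comparisons. Without the 3 muscle-rich arrays, the sign turned for Pygm (-0.36 for AKO against flox at RT, -1.28 for AKO against flox in cold, -0.55 for cold against RT in AKO fat and -0.92 for the difference between cold effects), for Gys1 (0.15 for AKO against flox in cold and 0.010 for the difference between cold effects) and for Ugp2 (0.086 for the difference between cold effects), and with the muscle mean as a covariate Gys1 had 0.011 for AKO against flox in cold. The number of all genes that passed was 32 for AKO against flox at RT, 47 for AKO against flox in cold, 103 for cold against RT in AKO fat, 2 for cold against RT in flox fat and 4 for the difference between cold effects. For AKO against flox at RT it was 1 with the methods' t-test, 20 with the muscle covariate and 12 without the muscle-rich arrays. For AKO against flox in cold it was 1 with that t-test and 23 without the muscle-rich arrays. For cold against RT in AKO fat it was 202 without dim genes, 212 with trend and robust settings, 0 with the t-test and 12 without the muscle-rich arrays. For cold against RT in flox fat it was 16 without dim genes, 50 with trend and robust settings, 0 with the t-test and 0 without the muscle-rich arrays. The causes were not tested.

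With the replicate block, 22, 40, 74, 1 and 6 genes passed in the 5 comparisons in the order above, and 0 glycogen genes did. The numbers share no stated origin. Of 18 pairs of same-numbered arrays, 4 had a correlation of their deviations over 0.1 (range -0.24 to 0.28, median 0.04). The highest was that of AKO RT 1 with AKO Cold 1. For 5 of 12 arrays the closest array of another group had the same number. Whether same-numbered arrays share an origin was not tested further.

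Leaving out each array in turn gave 12 to 52 genes for AKO against flox at RT, 23 to 53 for AKO against flox in cold, 40 to 123 for cold against RT in AKO fat, 0 to 104 for cold against RT in flox fat (104 without flox RT 3) and 4 to 13 for the difference between cold effects. Among the glycogen genes, 0 to 1 passed for AKO against flox in cold (Ppp1r3b without flox Cold 1), 0 to 1 for cold against RT in flox fat (Gys2 without flox RT 3), and 0 in the other comparisons. Where the sign of a difference turned, the ranges were -0.090 to 0.18 for Gys1, -0.72 to 0.045 for Gys2 and -0.36 to 1.59 for Pygm in AKO against flox at RT, and -0.079 to 0.048 for Gys1 in AKO against flox in cold. For cold against RT in AKO fat they were -0.054 to 2.19 for Pygm and -0.14 to 0.17 for Ppp1r3c. For cold against RT in flox fat they were -0.39 to 1.09 for Pygm, -0.13 to 0.15 for Pygb, -0.029 to 0.43 for Ppp1r3c and -0.33 to 0.79 for Ppp1r3b. For the difference between cold effects they were -0.19 to 0.087 for Gys1, -0.13 to 0.18 for Gbe1, -0.018 to 0.39 for Pygl, -0.43 to 1.82 for Pygm and -0.41 to 0.087 for Ppp1r3c. RMA values carry no call of signal over background, so what is measurable in dim genes is not known.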
